A study of Homo sapiens with 10 samples.

Results

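The genes described here are 10 members of the Notch pathway, measured by RNA sequencing in 2 human glioma cell lines in which the level of the homeobox transcription factor MEOX2 was changed. They are the receptors NOTCH1, NOTCH2 and NOTCH3, the Jagged ligands JAG1 and JAG2, the Fringe glycosyltransferases LFNG, MFNG and RFNG, and the target genes HES1 and HEY1. They were taken by gene name, 10 of the 34567 genes in the table, and were chosen because LFNG fell in both perturbed lines. The changes of LFNG after knockdown and after overexpression are therefore given as a description, with no test. All 10 passed the filter on low counts, also in a fit of the 6 SNB19 libraries alone, although NOTCH3 had only 4 to 19 counts per SNB19 library.

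SNB19 cells were transfected with Scramble siRNA (NC, n = 3) or with MEOX2 siRNA (siMEOX2, n = 3). Which of the study's MEOX2 siRNAs was used is not stated in the labels. U87 cells received empty vector lentivirus (EV, n = 2) or MEOX2 overexpression lentivirus (OE, n = 2). According to the study's methods the siRNAs were delivered transiently by a lipid reagent and the U87 lines were stable lines selected with puromycin, and both lines grew in serum-containing medium. Knockdown and overexpression were thus made in different lines by different means, so each has its own control group. The treatment labels of 3 U87 libraries name MEOX3, MEOX4 or MEOX5 while every title says MEOX2, and the titles of both OE libraries carry the same bracketed name. MEOX2 itself followed the titles. It had 249, 224 and 275 counts in NC and 54, 40 and 49 in siMEOX2, a log2 difference of -2.42 (SE 0.14, adjusted p = 9.1e-05, edgeR quasi-likelihood test). In U87 it had 0 counts in both EV libraries and 4999 and 5308 in OE, at least 3821-fold higher against a floor of 3 counts over the EV group.

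Notch receptors are cut after they bind a Jagged or Delta-like ligand on a neighbouring cell, and the freed intracellular domain enters the nucleus, where it joins the DNA-binding protein RBPJ and a Mastermind co-activator to switch on target genes such as HES1 and HEY1. Fringe enzymes extend O-fucose sugars on the receptors in the Golgi and so alter which ligands they answer to, and Lunatic Fringe, the product of LFNG, is the member best known from the segmentation clock of the embryo. In the nervous system the pathway holds neural progenitors undifferentiated and favours glial over neuronal fates, and it is active in many gliomas.

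Each library held 12533775 to 16560324 counts on genes, and nothing in the labels says that replicates were separate cultures, so p-values measure only the spread between these libraries, which may be technical. U87 EV replicate 1 stood apart. Its scaling factor between libraries (TMM) was 0.695, against 0.950 to 1.13 in all other libraries. Its Pearson r with EV replicate 2 over log2 CPM (counts scaled to the library total) was 0.876, against 0.992 to 0.996 in the other same-group pairs, and its long genes were low. The median log2 ratio of EV replicate 1 over replicate 2 was 1.08 for genes up to 1 kb, 0.04 for genes of 2 to 4 kb and -1.34 for the 810 genes over 12 kb. All 10 libraries were fitted together, so the difference between the EV libraries also widened the spread applied to SNB19. The biological coefficient of variation was 21.6% with all libraries and 5.76% without EV replicate 1. Leaving out either EV library removes that difference, so the fall does not show which of them is its source. Results that rest on EV replicate 1 are given both ways. Without it the EV group is 1 library, assumed to vary like the other groups.

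Most Notch members followed that length trend in sign. On the log2 scale NOTCH2, with the longest gene model at 16807 bases, was at -2.42 in EV replicate 1 relative to EV replicate 2, JAG1 at -2.07, NOTCH3 at -2.04, NOTCH1 at -1.44 and JAG2 at -0.65. The short members moved less, with HES1 at 0.45, HEY1 at 0.17, LFNG at 0.16 and MFNG at 0.12. RFNG, with a gene model of 3865 bases, was at 1.41, well above the median of 0.04 for genes of its length. In CPM the U87 control values of the receptors, JAG1 and RFNG therefore depend on which EV library is read. Those of LFNG, MFNG and HEY1 do so little. The fitted log2 differences of these 3 after overexpression still moved without EV replicate 1. LFNG went from -3.455 to -3.075, MFNG from -1.41 to -1.08 and HEY1 from 0.82 to 1.20.

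**Figure D1:**
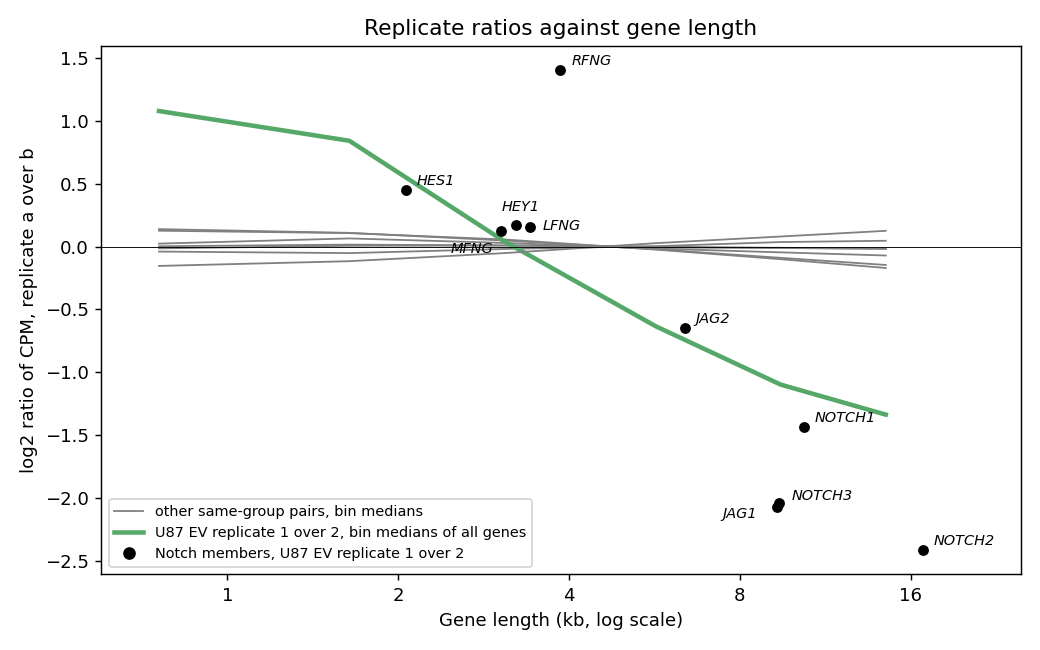
The log2 ratio of CPM between 2 replicates of a group (vertical axis) is plotted against gene length in kb (horizontal axis, log scale). The thick line joins the medians of all genes per length bin for U87 EV replicate 1 over replicate 2 and falls from 1.08 to -1.34, the thin lines are the other same-group pairs, and the points are the 10 Notch members for the EV pair, from NOTCH2 at -2.42 to RFNG at 1.41.

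In levels per gene length (FPKM, counts scaled to the length of the gene model and to the library total), NOTCH2 was the highest member in SNB19 NC at 36.8 ± 2.0 FPKM (SD, n = 3). JAG1 at 14.1 ± 0.44 and LFNG at 13.3 ± 0.86 followed and their ranges overlapped. HES1 at 9.23 ± 1.0, RFNG at 7.67 ± 0.30 and NOTCH1 at 4.55 ± 0.17 came next, each apart from its neighbours. JAG2, MFNG and HEY1 were between 0.67 and 1.57 FPKM in single NC libraries, and NOTCH3 was at most 0.084. After knockdown NOTCH2 and JAG1 stayed highest and LFNG stood sixth, below HES1. In U87 OE NOTCH2 was highest, followed by NOTCH1 and RFNG, each apart from its neighbours. HEY1, HES1 and JAG1 came next, and HES1 overlapped both of the others, with LFNG, NOTCH3, JAG2 and MFNG all under 0.57 FPKM. In EV each of the highest 7 members overlapped the next in the order of means, although RFNG, at 8.37 FPKM or more, lay above every member but NOTCH2 in both libraries and LFNG lay above HES1.

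**Figure D2:**
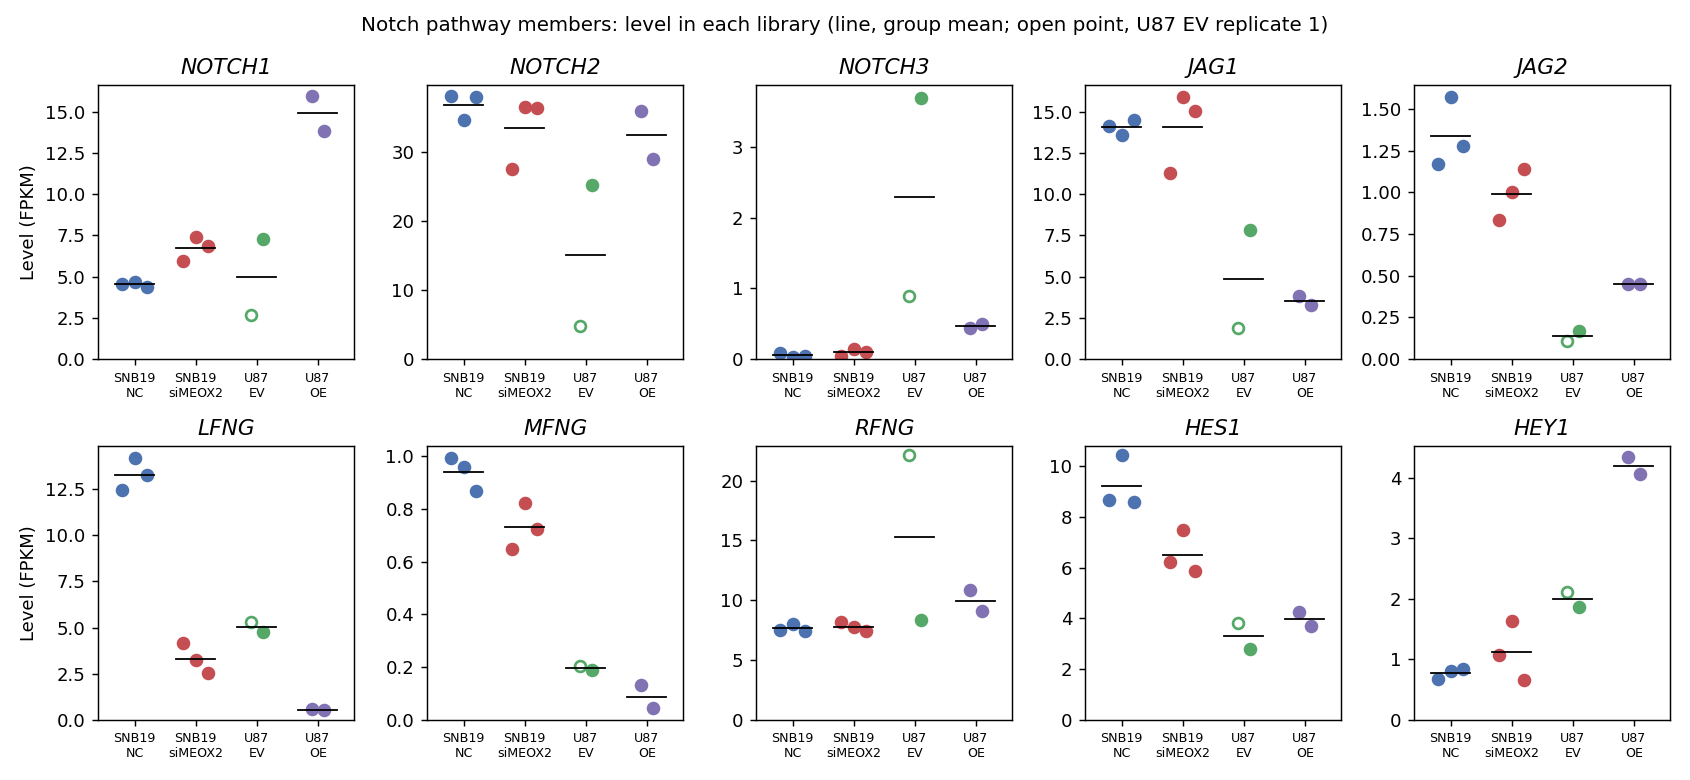
Each panel gives the level of 1 Notch member in FPKM (vertical axis, from 0) in the 10 libraries, with a line at each group mean and an open point for U87 EV replicate 1. LFNG runs from 12.46 to 14.2 in NC and from 2.51 to 4.17 in siMEOX2, and from 4.77 to 5.32 in EV and 0.54 to 0.56 in OE, while the EV points of NOTCH2 lie at 4.74 and 25.3.

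LFNG, on the plus strand at chr7:2512529-2529177 (GRCh38), stood at 12.46, 14.2 and 13.3 FPKM in the NC libraries and at 4.17, 3.22 and 2.51 FPKM after knockdown. In U87 it stood at 5.32 and 4.77 FPKM in EV and at 0.56 and 0.54 FPKM in OE. The groups did not overlap in either line, and LFNG was the lower both in the SNB19 group with less MEOX2 and in the U87 group with more. Its fitted log2 difference was -2.09 (SE 0.22) after knockdown, 4.27-fold lower, and -3.45 (SE 0.31) after overexpression. Without EV replicate 1 these were -2.08 and -3.07. The counts behind them were 665 to 705 in NC, 121 to 224 in siMEOX2, 229 to 294 in EV and 24 to 27 in OE. In bulk RNA, fewer cells with LFNG and less LFNG RNA per cell cannot be told apart.

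The other Fringe genes, MFNG (Manic Fringe) and RFNG (Radical Fringe), did not pass the test in either perturbation in the fit of all libraries. After overexpression RFNG passed with no filter on low counts, and MFNG passed the study's thresholds, which use the unadjusted p. RFNG was at 7.53, 8.02 and 7.47 FPKM in NC and 8.19, 7.80 and 7.42 in siMEOX2, overlapping ranges with a log2 difference of -0.06 (95% CI -0.88 to 0.76). In OE it was at 10.8 and 9.12 FPKM, between the EV values of 22.2 and 8.37. The sign of its difference depended on the EV library read, at -0.96 (adjusted p = 0.135) with both and 0.28 without EV replicate 1. Without EV replicate 2 the difference was below 0. MFNG was at 0.87 to 0.99 FPKM in NC and 0.65 to 0.82 in siMEOX2, ranges that did not overlap, with a log2 difference of -0.45 (95% CI -1.05 to 0.15, adjusted p = 0.298). Its U87 values rested on 2 to 10 counts per library, and the difference of -1.41 there had an adjusted p of 0.0688. Without EV replicate 1 the difference was -1.08.

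The make-up of the Fringe family by summed FPKM shifted with LFNG, and since the members were chosen on LFNG this is a description. LFNG held 59.4% to 61.4% of the family in NC and 23.6% to 32.1% in siMEOX2, while RFNG went from 34.6% to 35.9% up to 62.9% to 69.6%. In EV LFNG held 19.2% in replicate 1 and 35.8% in replicate 2, and in OE 4.86% and 5.56%, with RFNG at 94.0% in both OE libraries. MFNG was at most 6.96% of the family in any library. The summed Fringe level was 21.0 to 23.2 FPKM in NC and 10.7 to 13.01 FPKM in siMEOX2.

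**Figure D3:**
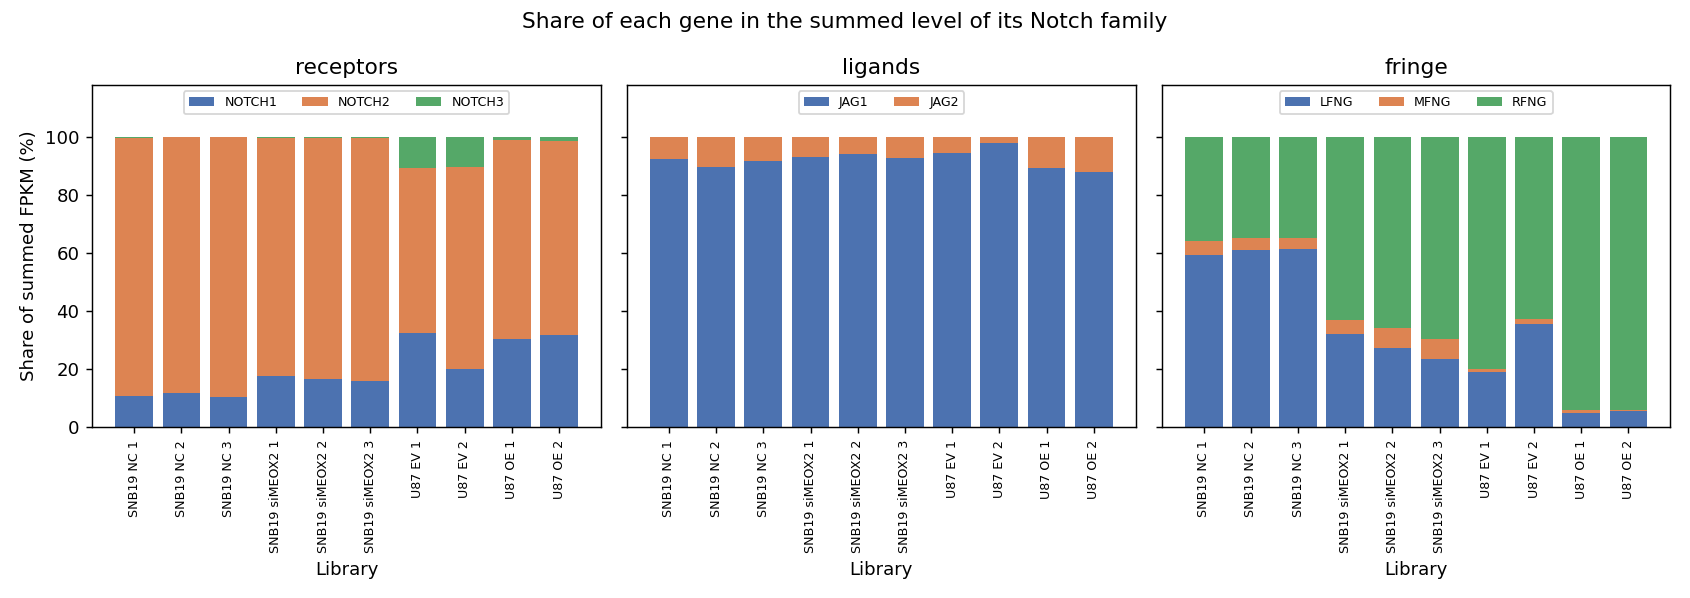
Stacked bars give the percentage of the summed FPKM of the receptors, Jagged ligands and Fringe genes held by each gene (vertical axis) in each of the 10 libraries (horizontal axis). LFNG takes 59.4% to 61.4% of the Fringe sum in NC and 4.86% to 5.56% in OE, and NOTCH3 takes 10.2% to 10.8% of the receptor sum in EV and at most 1.16% elsewhere.

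NOTCH1 was higher in the perturbed group of both lines. It stood at 4.57, 4.71 and 4.38 FPKM in NC and at 5.98, 7.41 and 6.87 FPKM after knockdown, with no overlap. The log2 difference of 0.48 (SE 0.22) did not pass the test with all libraries (adjusted p = 0.175) and passed it without EV replicate 1, at 0.48 (SE 0.07, adjusted p = 3.6e-06). In U87 NOTCH1 stood at 2.70 and 7.31 FPKM in EV and at 15.98 and 13.9 FPKM in OE, both OE libraries above both EV libraries. It rose by 1.43 on the log2 scale (SE 0.27, adjusted p = 0.00571), and by 1.06 (SE 0.11, adjusted p = 4.1e-09) without EV replicate 1. The gene lies on the minus strand at chr9:136494433-136545786.

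NOTCH3 fell in U87 after overexpression. Its values were 0.90 and 3.70 FPKM in EV and 0.43 and 0.50 FPKM in OE, with 136 and 488 counts against 51 and 69. The groups did not overlap and the log2 difference was -2.40 (SE 0.54, adjusted p = 0.012), or -2.94 (SE 0.23, adjusted p = 2.4e-11) without EV replicate 1. Leaving out either OE library ended the call, with adjusted p = 0.0984 without OE replicate 1 and 0.0763 without OE replicate 2. In SNB19 its 4 to 19 counts per library gave a log2 difference of 0.73 with a 95% CI of -0.76 to 2.22, so a change of either sign was not detectable at this depth.

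NOTCH2, the main receptor in every library, had 88.0% to 89.6% of the summed FPKM of the 3 receptors in NC and 82.0% to 83.9% in siMEOX2. It stood at 38.0, 34.6 and 37.9 FPKM in NC and at 27.5, 36.5 and 36.4 FPKM after knockdown, ranges that overlapped in FPKM. Its log2 difference was -0.23 (adjusted p = 0.757) with all libraries and -0.22 (adjusted p = 0.0167) in a fit of the 6 SNB19 libraries alone. The lowest of these, siMEOX2 replicate 1, was also low for genes over 12 kb. Its median log2 ratio there was -0.15 to siMEOX2 replicate 2 and -0.17 to replicate 3. Length-corrected offsets were used only with all 10 libraries, where NOTCH2 did not pass the test after knockdown with or without them. The fit of the SNB19 libraries alone was not length-corrected, so its call was not tested in this way. In U87 the EV values were 4.74 and 25.3 FPKM and the OE values 36.0 and 29.02 FPKM, so that the size of the difference hung on the EV library, at 1.02 (adjusted p = 0.138) with both and 0.39 (SE 0.12, adjusted p = 0.00719) with EV replicate 2 alone. NOTCH2 shares long near-identical stretches with its NOTCH2NL paralogs, so reads could be split between them in counting and its values are uncertain to that extent.

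Of the ligands, JAG2 rose in U87 after overexpression, and JAG1 did not pass the test in either line with all libraries. JAG2 was at 1.17, 1.57 and 1.28 FPKM in NC and 0.84, 1.00 and 1.14 FPKM in siMEOX2, without overlap. The log2 difference of -0.52 (SE 0.18) had an adjusted p of 0.0841, and 0.00825 without EV replicate 1. In U87 it was a low-level gene, at 0.11 and 0.17 FPKM in EV and 0.45 FPKM in both OE libraries, from 11 and 15 counts to 36 and 42. There it rose by 1.50 on the log2 scale (SE 0.28, adjusted p = 0.00558), and by 1.46 without EV replicate 1. The gene lies on the minus strand at chr14:105140981-105168824.

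JAG1, the ligand that made up 88.0% to 97.9% of the summed Jagged FPKM in every library, was at 14.1, 13.6 and 14.5 FPKM in NC and 11.3, 15.9 and 15.0 FPKM in siMEOX2. Those groups overlapped, with a log2 difference of -0.09 (95% CI -0.82 to 0.64). In U87 the OE values of 3.79 and 3.29 FPKM lay between the EV values of 1.86 and 7.83 FPKM. The log2 difference was -0.56 (adjusted p = 0.325) with both EV libraries, -1.11 (adjusted p = 7.7e-08) without EV replicate 1 and 0.49 without EV replicate 2, so its direction cannot be read from these libraries.

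The target genes HES1 and HEY1 encode basic helix-loop-helix repressors. HES1, on the plus strand at chr3:194136145-194138732, was at 8.67, 10.4 and 8.59 FPKM in NC and 6.21, 7.49 and 5.85 FPKM in siMEOX2. Every siMEOX2 library was below every NC library, and the log2 difference of -0.59 (SE 0.22) had an adjusted p of 0.105, and 0.000125 without EV replicate 1. In U87 HES1 was at 3.81 and 2.79 FPKM in EV and 4.26 and 3.71 in OE, overlapping ranges with a log2 difference of -0.01 (95% CI -0.65 to 0.63). Without EV replicate 1 it was 0.54 (adjusted p = 0.0603).

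HEY1 was at 0.67 to 0.84 FPKM in NC and 0.66 to 1.64 FPKM in siMEOX2, overlapping ranges from 30 to 76 counts per library, with a log2 difference of 0.45 (adjusted p = 0.407). In U87 it was at 2.11 and 1.87 FPKM in EV and 4.34 and 4.06 FPKM in OE, both OE libraries above both EV libraries. The log2 difference of 0.82 (SE 0.36) had an adjusted p of 0.116 with all libraries and was 1.20 (SE 0.28, adjusted p = 0.00081) without EV replicate 1. Without EV replicate 1 HES1 was thus called after knockdown and HEY1 after overexpression, and with all libraries neither was called after either perturbation.

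The promoters of HES1 and LFNG, both lower in each siMEOX2 library, are printed because each holds the hexamer TGGGAA or its complement, the core of the RBPJ recognition sequence. The windows are from RefSeq (GRCh38.p14), plus strand, from 250 bases before the annotated start up to the start base, with the RBPJ core in capitals. LFNG has 2 windows, at chr7:2512279-2512529 and chr7:2517613-2517863, and counts per gene do not tell which start was used. HES1 is at chr3:194135898-194136148.
HES1: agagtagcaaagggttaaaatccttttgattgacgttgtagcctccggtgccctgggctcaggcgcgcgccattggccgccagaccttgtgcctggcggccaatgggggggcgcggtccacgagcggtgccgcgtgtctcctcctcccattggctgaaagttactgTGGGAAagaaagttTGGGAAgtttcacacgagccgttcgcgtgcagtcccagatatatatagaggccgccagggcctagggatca
LFNG, first window: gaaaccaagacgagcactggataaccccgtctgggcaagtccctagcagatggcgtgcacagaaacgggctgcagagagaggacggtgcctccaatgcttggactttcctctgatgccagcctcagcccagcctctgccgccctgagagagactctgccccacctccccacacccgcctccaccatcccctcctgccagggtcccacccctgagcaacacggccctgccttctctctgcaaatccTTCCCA
LFNG, second window: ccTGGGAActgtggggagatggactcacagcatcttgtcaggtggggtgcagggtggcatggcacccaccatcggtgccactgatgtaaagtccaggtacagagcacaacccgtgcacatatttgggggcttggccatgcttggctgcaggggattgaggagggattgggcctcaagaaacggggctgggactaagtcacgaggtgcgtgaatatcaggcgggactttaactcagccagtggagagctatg

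HES1 holds 2 copies on the plus strand, beginning 84 and 70 bases before its start. The first LFNG window holds 1 on the minus strand that reaches the start base, and the second holds 1 on the plus strand beginning 248 bases before it. Windows of 300 bases (250 before, 50 after) were read for 8 of the 10 members, all but MFNG and HEY1, 9 windows in all. Windows on chromosome 8, where HEY1 lies, were left out of the member set, so HEY1 was not searched. TGGGAA on either strand was in 3 of the 9, those of HES1 and LFNG, against 24.0% of all 35116 promoters. The homeodomain core TAATTA was in none of the 9 windows and in 4.8% of all promoters. CACNAG, the N-box that HES repressors bind, occurred 4 times in the HES1 window and 9 times in all over 5 of the 9 windows, while 38.0% of all promoters held at least 1. Matches of different motifs did not overlap, while the 2 N-box matches of NOTCH1 overlapped each other. A match is a description of the letters and not a measured binding site.

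Counted over the 9 members other than LFNG, 0 passed the test after knockdown by edgeR with all libraries, where 15.7% of the 17312 genes tested did. DESeq2 also called 0 of the 9, and 2 (JAG2 and HES1) had an unadjusted p under 0.05. Without EV replicate 1, 1 rose (NOTCH1) and 3 fell (NOTCH2, JAG2 and HES1), where 47.1% of all genes were called, and the same 4 were called in a fit of the 6 SNB19 libraries alone, where 55.9% of all genes were. After overexpression 2 rose (NOTCH1 and JAG2) and 1 fell (NOTCH3), against 26.2% of all genes. Without EV replicate 1 NOTCH2 and HEY1 joined those that rose and JAG1 those that fell, against 38.9%. In a fit of the 4 U87 libraries alone edgeR called 0 genes, 2643 of 14180 had an unadjusted p under 0.05, and NOTCH1, NOTCH3 and JAG2 had adjusted p of 0.218, 0.194 and 0.217. Since LFNG chose the members from these 2 comparisons, nothing is read from these counts against the share of all genes.

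**Figure D4:**
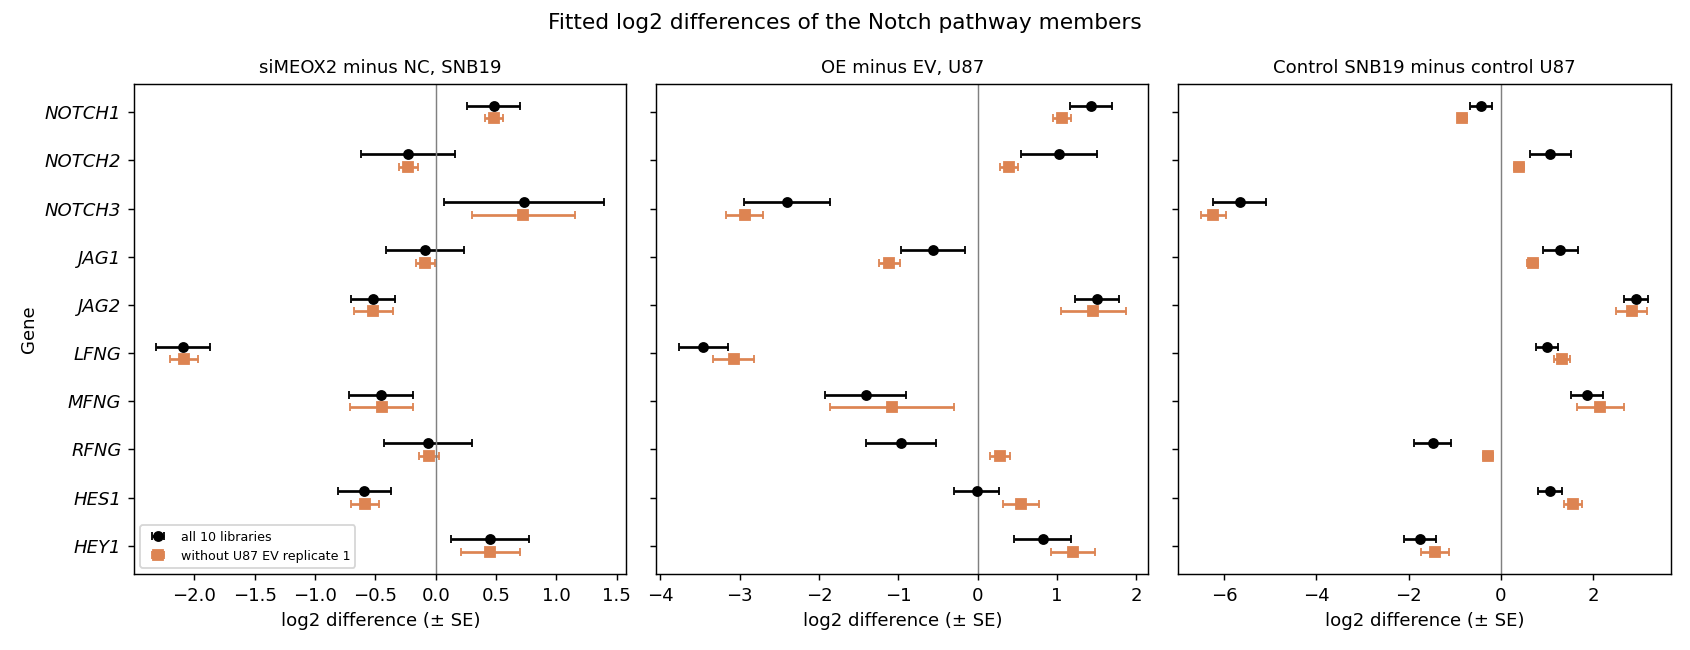
Fitted log2 differences (horizontal axis, with SE bars) of the 10 Notch members after knockdown, after overexpression and between the control lines. Circles are the fit of all 10 libraries and squares the fit without U87 EV replicate 1. LFNG lies at -2.09 and -3.45 in the first 2 panels, and RFNG changes side in the second, from -0.96 to 0.28.

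The control groups of the lines were compared next, a comparison that the choice of the members did not use, although the line, the delivery and the control reagent cannot be told apart in it. Of the 9 members other than LFNG, 4 were higher in SNB19 NC and 3 higher in U87 EV by edgeR, where 56.9% of all genes were called. LFNG, whose control values are among those that chose the members and which is not tested here, was at 12.46 to 14.2 FPKM in NC and 4.77 to 5.32 in EV. JAG2 was higher in SNB19 by 2.94 on the log2 scale (SE 0.26, adjusted p = 1.5e-05), MFNG by 1.87 (adjusted p = 0.0018), JAG1 by 1.29 (adjusted p = 0.0167) and HES1 by 1.06 (adjusted p = 0.00671). NOTCH3 was the member with the largest difference, at -5.66 in SNB19 relative to U87 (SE 0.57, adjusted p = 3.8e-05), and it rests on 4 to 13 counts in NC. HEY1 was at -1.76 (adjusted p = 0.00209) and RFNG at -1.48 (adjusted p = 0.011).

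Without EV replicate 1 all 9 were called, against 63.4% of all genes, and the sizes for the members with an odd EV replicate 1 changed by much. RFNG became -0.28 (adjusted p = 0.0393), JAG1 0.69 (adjusted p = 1.3e-05) and NOTCH1 -0.84 (adjusted p = 2.9e-08), while JAG2 was at 2.84 and NOTCH3 at -6.24. With a fit of the 2 control groups alone, JAG1 (adjusted p = 0.0814) and RFNG (adjusted p = 0.0689) lost the call. NOTCH1 and NOTCH2 did not pass the test with all libraries, at -0.42 (adjusted p = 0.161) and 1.07 (adjusted p = 0.0665).

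Whether MEOX2 went with a member in the same way in both lines was tested as the effect of more MEOX2 in U87 (OE minus EV) less the effect of more MEOX2 in SNB19 (NC minus siMEOX2). MEOX2 changed 5.36-fold in SNB19 and at least 3821-fold in U87, so line, delivery and size of the change cannot be told apart here. Of the 9 members, NOTCH1 was above 0 at 1.91 (SE 0.35, adjusted p = 0.00433) and MFNG below 0 at -1.86 (SE 0.57, adjusted p = 0.0435), against 24.4% of all genes called. NOTCH1 was the higher with more MEOX2 in U87 and the lower with more MEOX2 in SNB19, and its difference was 1.54 (adjusted p = 7.8e-11) without EV replicate 1. MFNG rests on few counts and lost the call without EV replicate 1, at -1.53 (adjusted p = 0.145), without OE replicate 2, at -1.27 (adjusted p = 0.205), and without any 1 of the 6 SNB19 libraries. Without EV replicate 1, NOTCH1 and HEY1 (1.65) were called above 0 and NOTCH3 (-2.21) and JAG1 (-1.20) below it, against 43.0% of all genes. LFNG, which was not tested here, was at -5.55.

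A wider list of 73 Notch genes (other receptors and ligands, enzymes and endocytosis factors, nuclear complex, turnover, other targets) was read for context, of which 66 were tested. After knockdown 3 rose and 14 fell, where 15.7% of all genes were called, with a median log2 difference of -0.14 against -0.0013 over all genes. Leaving out EV replicate 1, 10 rose and 29 fell, where 47.1% of all genes were called. Of the 23 nuclear complex genes tested, 0 rose and 3 fell with all libraries, where 1210 of the 17312 genes rose and 1515 fell. In a fit of the 6 SNB19 libraries alone, 4 rose and 14 fell of 22 tested, where 55.9% of all genes were called. With all libraries, the 6 genes of the wider list called with the smallest adjusted p were MYC, BHLHE41, SOX9, PSEN2, FURIN and MAML3. MYC, a growth-promoting transcription factor and Notch target in other cells, rose by 1.33 on the log2 scale (adjusted p = 0.000681), from 23.2 to 25.5 FPKM in NC to 61.1 to 73.9 FPKM in siMEOX2. SOX9, a glial transcription factor, fell by 1.87 (adjusted p = 0.0011) and MAML3, a Mastermind co-activator, fell by 1.59 (adjusted p = 0.00344). FURIN, the protease that cuts receptors on their way to the surface, fell by 0.83, PSEN2, a catalytic subunit of gamma-secretase, fell by 0.88 and BHLHE41, a repressor related to HES proteins, fell by 1.17.

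After overexpression 3 of the 66 rose and 4 fell, where 26.2% of all genes were called, and without EV replicate 1, 12 rose and 13 fell, where 38.9% were. MYC rose here too, by 1.55 (adjusted p = 0.000468), from 46.1 and 85.1 FPKM in EV to 215.9 and 219.3 FPKM in OE. NEURL1B, an E3 ligase that acts on ligands, was lower after knockdown, at -1.39 (adjusted p = 0.0132), and like LFNG was lower in both perturbed lines. After overexpression it fell by 2.98 (adjusted p = 0.00133), from 0.99 and 3.52 FPKM to 0.34 and 0.29 FPKM. APH1A, a gamma-secretase subunit, fell by 0.80, KAT2A, an acetyltransferase, fell by 0.96, DTX2, an E3 ligase of the Deltex family, fell by 1.28 and TLE3, a Groucho-type co-repressor, rose by 0.62. KAT2A was at -0.51 (adjusted p = 0.00028) and DTX2 at -0.56 (adjusted p = 0.00259) without EV replicate 1. The test of the difference between the lines called 2 above 0 and 12 below it, where 24.4% of all genes were called, led by MYC at 2.88, NEURL1B at -4.37, SOX9 at -2.64 and GFAP at -2.52, with APH1A at -0.86 and APH1B at 0.87. SOX9 and GFAP are also among the 11 glial markers.

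Between the control lines 19 of the 66 were higher in SNB19 and 19 higher in U87, a share near the 56.9% of all genes called. EGFL7, a secreted protein that binds Notch receptors, had 218 to 224 counts in NC and 0 in all 4 U87 libraries, and NRARP, a feedback inhibitor induced by Notch, had 149 to 193 counts in NC and at most 1 in U87. DNER, a non-canonical ligand, was at 0.83 to 1.09 FPKM in NC and 18.3 and 31.4 FPKM in EV, a log2 difference of -5.05. TLE2, a Groucho-type co-repressor, was at 2.95 to 3.70 FPKM in NC and at 0.12 and 0.018 FPKM in EV. CCND1 and MYC were lower in SNB19 NC than in U87 EV, at -2.29 and -1.74. The Delta-like ligands and NOTCH4 were low throughout, with DLL3 at 0.46 to 2.09 FPKM and NOTCH4 at 0.11 to 0.32, and DLL4 was listed at 0 in both EV libraries.

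The genes whose pattern was most like that of LFNG were found by Pearson r over the 10 libraries, with log2 CPM centred within each line, so the perturbation and the shared controls drive the ranking and no p is given. They were BCAR1 and GPC1 (r = 0.996 each), CDC42EP4 (r = 0.995), and PHF19 and GAS2L1 (r = 0.994 each), out of 17312 genes. Their changes were smaller than those of LFNG. BCAR1 was at -0.62 after knockdown and -1.03 after overexpression, and PHF19 at -0.69 and -1.08.

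Markers of the lines moved with the groups as well. The summed level of the 11 glial and glioma markers was 249.2 to 250.9 FPKM in NC, 127.3 to 131.1 in siMEOX2, 335.4 and 756.0 in EV and 198.3 to 200.9 in OE. VIM and CD44 carried most of that sum, with mean levels of 161.1 and 28.9 FPKM in NC. OLIG2 went the other way, with means of 1.15 FPKM in NC and 1.72 in siMEOX2 and of 1.50 in EV and 6.21 in OE, and CD44 was at 66.4 in EV and 67.7 in OE. AQP4 was at 0 in NC, and S100B, AQP4 and ALDH1L1 were at 0 in every U87 library. The 6 endothelial markers summed to 5.52 to 6.36 FPKM in NC and 1.60 to 1.77 in siMEOX2, the 6 microglial and immune markers to at most 0.79 FPKM and the 6 neuronal markers to 2.79 to 5.36 FPKM over all libraries. PECAM1 carried most of the endothelial fall, with means of 4.27 FPKM in NC and 0.73 in siMEOX2, while KDR and CLDN5 went the other way. The part of these shifts in the changes of the Notch members was not tested.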

How the data were processed

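Poly-A RNA of 10 libraries from SNB19 and U87 cells was sequenced as paired-end reads. The authors deposited gene counts, and the submitters' processing notes name HISAT2, HTSeq 0.11.2, DESeq2 1.26.0 and the GRCh38 build. The annotation release and the strand setting are not given in the sources used here, so reads from overlapping or antisense genes could not be told apart. The authors also deposited FPKM, which equal counts over gene model length and the library total, and these were used only for levels between genes. Their fold changes and p-values were not used.

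Counts were fitted in edgeR 4.0.16 (quasi-likelihood test, filterByExpr with a minimum count of 10, TMM, Benjamini-Hochberg) in R 4.3.3, all 10 libraries in 1 fit of 4 groups, and genes were called at an adjusted p under 0.05. SE is the log2 difference over the square root of F, and 95% intervals use the t distribution with the fitted degrees of freedom. Groups were called overlapping on TMM-scaled CPM unless FPKM is named. DESeq2 1.42.0, RLE size factors, no filter, fits of the compared groups alone, a replicate block, the study's thresholds, each library left out, and 2 alternatives chosen after seeing the data (offsets for gene length, a crossed block) were tried. Scripts were tested on simulated counts. Same-numbered SNB19 libraries were not paired (r of deviations -0.073, -0.116 and 0.143). The members and lists were chosen with earlier results of these data known. All 10 members, MEOX2, the 6 called wider Notch genes with the smallest adjusted p per comparison, the Delta-like ligands and NOTCH4, and the 5 genes most like LFNG are named. Intervals cover the spread between libraries, and a floor of 3 counts covers counting error only.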

Additional observations from a re-analysis of the deposited data

Results flagged for a closer look

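3 members stood out for a difference with MEOX2 that was unlike in the 2 lines, measured as the effect of more MEOX2 in U87 less that in SNB19 on the log2 scale. Line, delivery and the size of the MEOX2 change cannot be told apart in this measure. NOTCH1 was at 1.91 and passed the edgeR test of the difference (adjusted p = 0.00433). MFNG was at -1.86 and passed it narrowly (adjusted p = 0.0435), on 2 to 10 counts per U87 library, where 24.4% of all genes were called. It lost the call without EV replicate 1 (-1.53, adjusted p = 0.145), without OE replicate 2 (-1.27, adjusted p = 0.205), without any 1 of the 6 SNB19 libraries, with no filter on low counts, with length-corrected offsets and with either block. LFNG was at -5.55, with both OE libraries below both EV libraries and every NC library above every siMEOX2 library, and this difference was not tested because LFNG chose the members.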

How the results depend on the processing

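Numbers of genes called depended on the libraries fitted together. Leaving out 1 library gave 1148 to 8700 genes for the knockdown (2725 with all), 1553 to 10929 for the overexpression (4538) and 2265 to 10435 for the difference between the lines (4229), the highest in each without EV replicate 2. Fits of the compared groups alone gave 8683 for the knockdown and 0 for the overexpression (2643 at an unadjusted p under 0.05). The replicate block gave 972, 2126 and 2215 genes for the knockdown, the overexpression and the difference, and it ended the calls of MFNG (adjusted p = 0.0521) and HES1 (0.0624) between the control lines and of MFNG (0.0801) for the difference. Crossing the numbers in U87, where same-numbered libraries had r = -0.336, gave 1786 genes for the knockdown. The cause of these shifts was not tested, apart from the fewer libraries. The number called between the control lines stayed within 1.5 times 9843.

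Signs changed for members near 0 or with unlike EV libraries. HES1 after overexpression was 0.0229 with DESeq2, 0.0221 with RLE size factors, 0.0436 with the replicate block, 0.0375 with the crossed block, 0.33 with length-corrected offsets and -0.37 to 0.54 with 1 library left out. Leaving out 1 library gave -0.179 to 0.0368 for JAG1 after knockdown, -1.11 to 0.49 for JAG1 and -1.59 to 0.28 for RFNG after overexpression, -0.84 to 0.12 for NOTCH1 between the control lines, and -1.20 to 0.41 for JAG1 and -1.64 to 0.23 for RFNG in the difference. With length-corrected offsets NOTCH1 (0.52) and HES1 (-0.64) were called after knockdown and HEY1 (1.02) after overexpression. The log2 difference of LFNG after overexpression ran from -3.45 to -3.07 with and without EV replicate 1, beyond 1 SE.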
